A study of Homo sapiens with 9 samples.

Results

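Zinc finger genes of chromosome 19 were followed in MCF10A cells, a non-tumorigenic human breast epithelial line, after knockdown of CHAF1B. The genes were chosen as the rows of a table of read counts that GENCODE release 29 annotates as protein-coding on chromosome 19 and whose symbol is ZNF, a number and at most 1 further letter. That rule found 211 of the 26186 genes of the table; a further 35 genes of the annotation meet it but were not among the rows and are not analysed here. The rule used no measured value beyond presence among the rows, whose lowest total over the libraries was 7 counts. It was set with earlier results of these data known. Polyadenylated RNA was sequenced from 3 libraries of cells carrying the hairpin shCHAF1B-#1, 3 carrying shCHAF1B-#2 and 3 carrying shGFP, a hairpin against green fluorescent protein, which has no human target. All 9 libraries came from MCF10A cells transduced with a lentiviral pLKO.1 hairpin, kept in 2 µg/mL puromycin from 24 hours after transduction and collected on day 3 after infection, so shGFP controls for infection and selection too. The labels do not say whether the libraries of a group came from separate cultures, and the p-values below measure the spread between these libraries only. In bulk RNA, fewer cells of a type and less RNA per cell cannot be told apart.

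CHAF1B is the p60 subunit of chromatin assembly factor 1 (CAF-1), which places new histones H3 and H4 on DNA behind the replication fork. Most zinc finger proteins of chromosome 19 carry a KRAB domain, which binds the corepressor TRIM28, and an array of C2H2 zinc fingers, which reads DNA. TRIM28 brings the methyltransferase SETDB1 and HP1 proteins, and many target sites lie in transposable elements. The genes themselves stand in tandem arrays that arose by duplication and are known to carry trimethylated H3K9, a mark of heterochromatin, over their bodies and 3′ ends while being transcribed.

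In the translated annotation, at least 1 C2H2 finger was found in 210 of the 211 genes, with a median of 12 fingers and a maximum of 31 in ZNF91. A KRAB box motif was found in 177 (83.9%), against 90 of the 237 genes with the same symbol pattern on other chromosomes (38%). Positions fell into 16 clusters when a gap of over 1 Mb started a new one. Of these, 8 clusters held at least 5 genes with enough reads to test and are described below.

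Promoters of 4 genes are printed here because they carry the plainest contrasts of the data. ZNF132 had the largest change of the family, and ZNF430, ZNF431 and ZNF85 lie within the same array, where ZNF430 rose and the other genes shown fell. Each run holds the 250 bases before and the 50 from the RefSeq start, on GRCh38.p14 and in the gene's direction, with every CG in capitals. They lie at chr19:58440104-58440403 (minus strand, ZNF132), chr19:21020407-21020706 (plus, ZNF430), chr19:21141790-21142089 (plus, ZNF431) and chr19:20923001-20923300 (plus, ZNF85).
ZNF132: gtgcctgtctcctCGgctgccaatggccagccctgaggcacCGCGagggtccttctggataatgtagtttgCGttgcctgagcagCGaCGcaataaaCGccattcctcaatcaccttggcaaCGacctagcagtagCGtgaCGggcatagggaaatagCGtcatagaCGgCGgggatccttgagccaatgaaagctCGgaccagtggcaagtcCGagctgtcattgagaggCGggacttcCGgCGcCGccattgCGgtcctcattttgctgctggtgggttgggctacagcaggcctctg
ZNF430: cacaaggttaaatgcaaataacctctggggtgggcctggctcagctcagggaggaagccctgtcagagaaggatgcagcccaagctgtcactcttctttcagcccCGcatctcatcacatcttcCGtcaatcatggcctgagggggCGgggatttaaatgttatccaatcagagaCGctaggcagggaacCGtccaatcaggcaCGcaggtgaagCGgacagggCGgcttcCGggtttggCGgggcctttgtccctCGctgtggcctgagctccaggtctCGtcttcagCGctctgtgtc
ZNF431: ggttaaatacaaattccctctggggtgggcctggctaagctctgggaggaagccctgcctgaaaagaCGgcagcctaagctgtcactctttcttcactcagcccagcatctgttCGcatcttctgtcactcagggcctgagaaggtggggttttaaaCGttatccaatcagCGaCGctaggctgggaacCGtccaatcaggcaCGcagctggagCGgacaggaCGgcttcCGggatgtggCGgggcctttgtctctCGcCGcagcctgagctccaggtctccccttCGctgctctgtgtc
ZNF85: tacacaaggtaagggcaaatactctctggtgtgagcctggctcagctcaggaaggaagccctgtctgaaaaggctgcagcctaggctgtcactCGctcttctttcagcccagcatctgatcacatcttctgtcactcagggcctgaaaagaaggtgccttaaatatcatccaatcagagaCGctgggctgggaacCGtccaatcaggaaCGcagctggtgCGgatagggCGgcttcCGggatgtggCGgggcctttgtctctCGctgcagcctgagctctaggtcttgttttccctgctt
The last 3 promoters are close copies: in a global alignment ZNF430 and ZNF431 were identical at 85.3% of bases, and each matched ZNF85 at 83.3%. ZNF132 matched them at 51.7% to 56%. The windows held 20 CG in ZNF132, 13 in ZNF430, 14 in ZNF431 and 9 in ZNF85, beside a median of 20 over the 190 family members with a RefSeq entry and 25 over 11700 protein-coding genes. All 4 windows hold CCAAT, the box bound by NF-Y, and CTTCCGG, which contains the GGAA core (on the opposite strand) that ETS factors read; both strands were searched, and the letters were chosen after the sequences were seen. CCAAT stood in 52.1% of the 190 windows of the family and in 34.6% of all 35116 windows, and CTTCCGG in 46.3% and 10.3%.

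CHAF1B RNA was low in every knockdown library. It lay between 2.56 and 3.89 CPM (read counts scaled to the TMM-adjusted library total) in the 6 knockdown libraries, against 35.2 to 41.0 CPM in the 3 shGFP libraries. Libraries held 24339914 to 31819468 counts. Basal mammary epithelial markers were abundant throughout, with 10 genes summing to 17021 to 18607 CPM in the knockdown libraries and 13761 to 14844 CPM in shGFP libraries. Markers of several other cell types separated the groups at lower levels. Luminal hormone-sensing markers summed to 993 to 1154 CPM in the knockdown libraries and 680 to 715 CPM in shGFP libraries. Myeloid markers summed to 41.2 to 45.6 and 29.1 to 32.9 CPM, and endothelial markers to 9.75 to 11.5 and 3.26 to 4 CPM. Neuron markers likewise lay higher after knockdown (6.68 to 10.5 against 4.63 to 6.13 CPM). Fibroblast markers went the other way, with 14.4 to 17.3 CPM in the knockdown libraries and 17.5 to 17.7 CPM in shGFP libraries. The part of these marker lists in the zinc finger values was not tested. In a replicate of shCHAF1B-#1, number 3, 10 B lymphocyte markers summed to 219 CPM, against 1.5 to 2.58 CPM in each of the other 8 libraries. The main counts of calls and the values of some clusters are also given without that library, and its part in other zinc finger values was not tested.

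Zinc finger genes of chromosome 19 moved in both directions after CHAF1B knockdown, mostly by small amounts, and the family's total RNA overlapped between groups. Genes with too few counts were set aside, which left 184 of the 211 in a test of 16235 genes; a gene was called at an adjusted p under 0.05 in edgeR's quasi-likelihood test with Benjamini-Hochberg adjustment over all of them. Against shGFP, the mean of both hairpins called 28 of the 184 higher and 36 lower, a share of 34.8%, beside 56.9% of all genes tested. The hairpins gave like counts one by one: shCHAF1B-#1 called 25 higher and 29 lower (29.3%, beside 53.2% of all genes), and shCHAF1B-#2 called 20 higher and 29 lower (26.6%, beside 51.3%). Both hairpins called the same 39 genes in the same direction, 16 higher and 23 lower, which is 21.2% beside 44.7% of all genes. No gene was called in opposite directions, and the 2 contrasts share the shGFP libraries. Without replicate 3 of shCHAF1B-#1 the mean of both hairpins called 25 higher and 35 lower (32.6%, beside 55.2% of all genes). Of the 64 calls with all libraries, 57 were made again in the same direction. Then shCHAF1B-#1 alone called 17 higher and 24 lower (22.3%, beside 48.4% of all genes), and shCHAF1B-#2 21 and 31 (28.3%, beside 50.7%). Both hairpins then called 12 higher and 20 lower in the same direction, 17.4% beside 42% of all genes.

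The spread of the family was narrow. The median log2 fold change was -0.03 over the 184 genes and -0.01 over all genes, and the interquartile range was 0.419 against 0.577. In the mean of both hairpins a single member, ZNF132, passed a 2-fold change, beside 8.11% of all genes tested. With shCHAF1B-#1 there were 3, ZNF132 (1.56), ZNF575 (-1.08) and ZNF345 (1.02), beside 8.7% of all genes. With shCHAF1B-#2 there were 2, ZNF132 (1.72) and ZNF285 (-1.01), beside 8.14%. These are low levels: ZNF575 and ZNF345 averaged 0.61 and 0.69 CPM over the 9 libraries, and ZNF285 lay under 1 CPM. Without replicate 3 of shCHAF1B-#1, ZNF345 stood at 0.55 with that hairpin and was not called (adjusted p = 0.26). Log2 fold changes within 0.2 of 0 were found for 46.7% of the family, 52.3% of the 220 tested zinc finger genes of other chromosomes and 36.8% of all genes. Zinc finger genes of other chromosomes had 39 called higher and 66 lower, 47.7% of the 220. The members' standard errors were larger, with a median of 0.12 against 0.0754 over all genes, but not at every level. Between 1 and 10 CPM, where 126 of the 184 lay, the median was 0.126 against 0.144 over all genes at that level. It was 0.0722 against 0.0534 at 10 CPM or more, and 0.318 against 0.287 under 1 CPM.

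**Figure D1:**
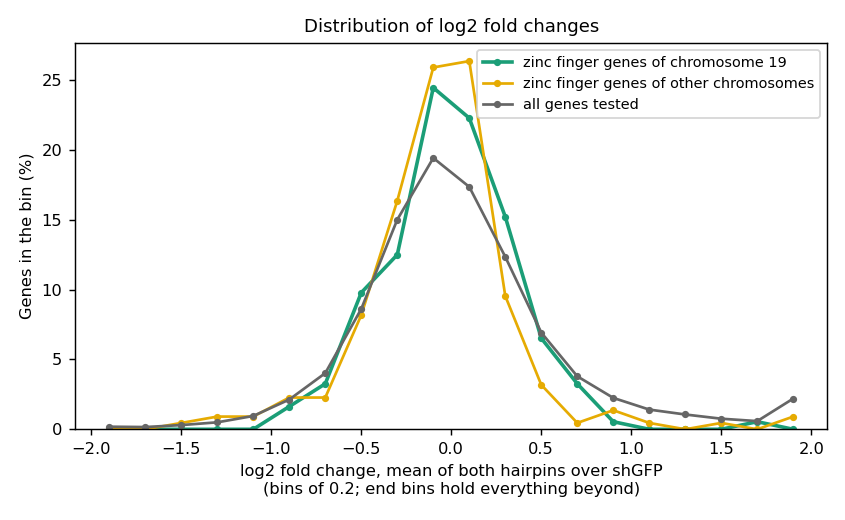
Share of genes (%) in bins of 0.2 of the log2 fold change of the mean of both hairpins over shGFP, for the 184 tested zinc finger genes of chromosome 19, the 220 of other chromosomes and all 16235 genes tested; the end bins hold everything beyond. The curve of chromosome 19 lies above that of all genes around 0, and the single member past 2-fold in this contrast is ZNF132.

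The share called was also read by level. The family's median level in shGFP was 0.7 RPKM, that is CPM divided by the exon length in kilobases, and the tested members had a median of 4.56 CPM over the 9 libraries, against 17.5 CPM over all tested genes. At a mean of 10 CPM or more 22 of 39 members were called (56.4%), beside 69.6% of all genes at that level. Between 1 and 10 CPM the share was 36 of 126 (28.6%), beside 49.1%. Under 1 CPM it was 6 of 19 (31.6%), beside 26.8%. Summed over the family, RNA came to 1406 ± 46.0 CPM with shCHAF1B-#1, 1395 ± 36.5 CPM with shCHAF1B-#2 and 1438 ± 46.4 CPM with shGFP (SD, n = 3 each).

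**Figure D2:**
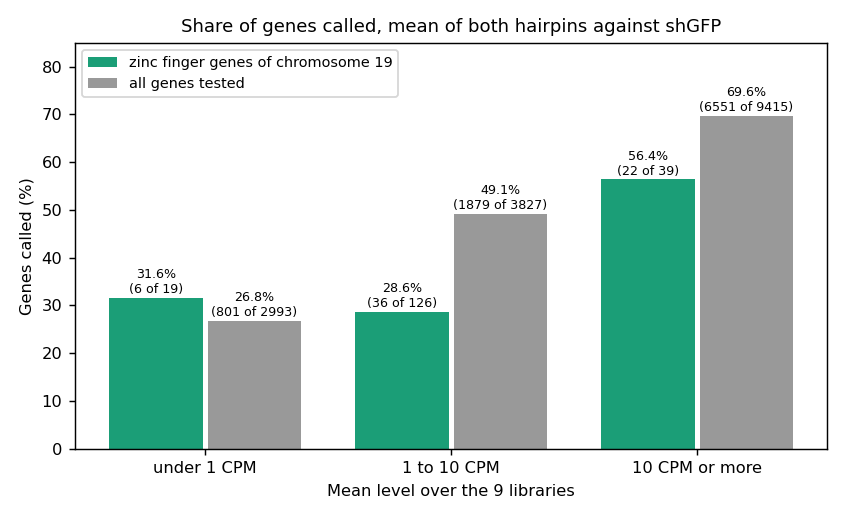
Share of genes called (%) in the mean of both hairpins against shGFP, by mean level over the 9 libraries, for zinc finger genes of chromosome 19 and for all genes tested. At 10 CPM or more 56.4% of the members and 69.6% of all genes were called, and between 1 and 10 CPM 28.6% and 49.1%.

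The genes named next were chosen by a rule that required every knockdown library to lie on one side of every shGFP library, so their separation is a description. All 6 knockdown libraries lay on one side of the 3 shGFP libraries for 53 of the 184 members (28.8%), 23 higher and 30 lower, beside 48.6% of all genes. Among the genes that rose under both hairpins, ZNF132 stood first; its promoter is known to be methylated in several cancers. The gene spans chr19:58432814-58440222 on the minus strand (GRCh38). ZNF132 had 1.38, 1.09 and 1.22 CPM with shCHAF1B-#1 and 1.5, 1.10 and 1.51 CPM with shCHAF1B-#2, against 0.270, 0.322 and 0.631 CPM with shGFP. All 6 knockdown libraries lay above all 3 shGFP libraries, and the log2 fold change of the mean was 1.64 (SE 0.264, adjusted p = 0.00012). The shGFP values rest on 7, 9 and 18 reads.

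ZNF274 encodes a KRAB protein known to bind the 3′ ends of zinc finger genes and to bring SETDB1 there; it spans chr19:58183029-58213562 on the plus strand. It had 11.9, 12.9 and 14.8 CPM with shCHAF1B-#1 and 12.9, 13.1 and 11.8 CPM with shCHAF1B-#2, against 9.59, 8.28 and 10.0 CPM with shGFP. The groups did not overlap, and the log2 fold change was 0.47 (SE 0.0884, adjusted p = 0.00045). ZNF430, whose promoter is shown above, had 11.3, 12 and 13.4 CPM with shCHAF1B-#1 and 12.3, 11.1 and 12.1 CPM with shCHAF1B-#2, against 8.32, 7.27 and 9.09 CPM with shGFP, a log2 fold change of 0.55 (SE 0.088, adjusted p = 0.00012). ZNF160 is known as a repressor of TLR4 in intestinal epithelial cells. It had 10.8, 11.2 and 11.8 CPM with shCHAF1B-#1 and 11.1, 11.6 and 12.5 CPM with shCHAF1B-#2, against 8.25, 8.49 and 8.77 CPM with shGFP, with no overlap and a log2 fold change of 0.44. The other named risers were ZNF329 (0.63), ZNF460 (0.65), ZNF776 (0.44), ZNF226 (0.39), ZNF264 (0.42) and ZNF28 (0.38), of 14 genes that met the same criteria. ZNF776 and ZNF28 share exon sequence with another gene on their own strand, so their reads may be split or mixed. The call of ZNF460 with shCHAF1B-#1 was lost without replicate 2 or 3 of that hairpin, without replicate 3 of shGFP and with DESeq2 (adjusted p = 0.051 to 0.094).

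Among the genes that fell under both hairpins, ZNF473 encodes ZFP100, a protein that binds the U7 snRNP in 3′ end processing of histone pre-mRNA; the gene spans chr19:50025714-50053414 on the plus strand. It had 10.0, 10.5 and 11.6 CPM with shCHAF1B-#1 and 11.9, 11.0 and 10.3 CPM with shCHAF1B-#2, against 15.5, 16.3 and 17.3 CPM with shGFP. The groups were separate, with a log2 fold change of -0.59 (SE 0.0716, adjusted p = 9.7e-06). The exons of ZNF473 overlap those of VRK3 on the opposite strand, and the library kit does not mark strand.

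ZNF85 had 2.20, 2.76 and 3.00 CPM with shCHAF1B-#1 and 2.29, 2.51 and 2.56 CPM with shCHAF1B-#2, against 4.62, 3.91 and 4.53 CPM with shGFP, a log2 fold change of -0.77 (SE 0.12, adjusted p = 9.1e-05). ZNF544 had 15, 15.4 and 16.0 CPM with shCHAF1B-#1 and 14.7, 16.3 and 16.0 CPM with shCHAF1B-#2, against 22, 22.4 and 24.6 CPM with shGFP, a log2 fold change of -0.56 (adjusted p = 3.1e-06). In both genes every knockdown library lay below every shGFP library. ZNF561 fell to 23.7, 24.5 and 26.7 CPM with shCHAF1B-#1 and 25.2, 25 and 23.5 CPM with shCHAF1B-#2, against 34.8, 33.5 and 36.7 CPM with shGFP; it shares exon sequence with its antisense gene ZNF561-AS1. ZNF71 is also known as EZFIT, an endothelial zinc finger gene induced by tumour necrosis factor. It had 7.24, 6.80 and 5.68 CPM with shCHAF1B-#1 and 5.24, 5.49 and 5.25 CPM with shCHAF1B-#2, against 9.13, 10.3 and 8.88 CPM with shGFP. The groups were separate for ZNF561 and ZNF71 too, with log2 fold changes of -0.50 and -0.67. The other named fallers were ZNF546 (-0.73), ZNF30 (-0.67), ZNF616 (-0.51), ZNF714 (-0.50) and ZNF480 (-0.47), of 20 genes that met the criteria.

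**Figure D3:**
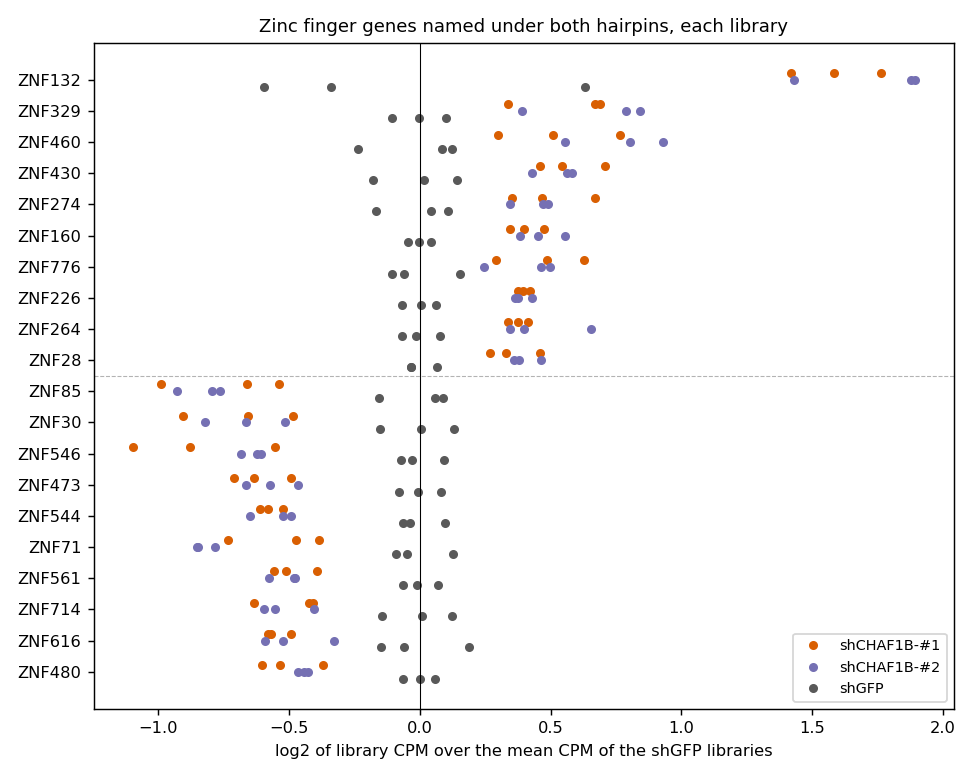
Log2 of the CPM in each of the 9 libraries over the mean CPM of the shGFP libraries, for the 10 rising and 10 falling genes named by the rule; each point is a library, with shCHAF1B-#1 and shCHAF1B-#2 drawn above shGFP in each gene's row. All 6 knockdown points lie right of the shGFP points for the rising genes and left of them for the falling genes, a separation that the choice of genes required.

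Members of known role outside these lists gave no call in the mean of both hairpins. ZNF91, known to restrain SVA retrotransposons, had 9.84, 8.91 and 11.4 CPM with shCHAF1B-#1 and 10.1, 10.6 and 9.08 CPM with shCHAF1B-#2, against 8.05, 7.52 and 9.75 CPM with shGFP (log2 fold change 0.24, adjusted p = 0.062). The groups overlapped, and it was called without replicate 2 of shCHAF1B-#1, without replicate 3 of shCHAF1B-#2 or without replicate 3 of shGFP (0.272 to 0.358, adjusted p = 0.015 to 0.043). ZNF93, which restrains L1 elements, had 0.447, 0.449 and 0.867 CPM with shCHAF1B-#1 and 0.166, 0.392 and 0.462 CPM with shCHAF1B-#2, against 0.270, 0.394 and 0.491 CPM with shGFP. Its groups overlapped, and its log2 fold change was 0.20 with an SE of 0.357; without replicate 3 of shCHAF1B-#1 it was 0.0127, and with single libraries left out it ranged from 0.00695 to 0.411. ZNF224, a repressor of the aldolase A gene, stood at 0.06 and the imprinted gene ZNF331 at -0.22 (adjusted p = 0.64 and 0.20). ZNF568, whose mouse counterpart represses an Igf2 transcript, had too few reads to test.

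Members highest per exon length in shGFP had log2 fold changes between -0.20 and 0.14 in the mean of both hairpins. ZNF146, a protein made almost wholly of zinc fingers, averaged 39.1 RPKM in shGFP; in CPM it had 145, 142 and 142 with shCHAF1B-#1 and 158, 148 and 157 with shCHAF1B-#2, against 161, 151 and 174 with shGFP. Its log2 fold change was -0.12 (adjusted p = 0.034), its groups overlapped, and the call was lost without any 1 of replicates 2 and 3 of shCHAF1B-#1, 2 of shCHAF1B-#2 and 1 and 3 of shGFP (-0.129 to -0.0692, adjusted p = 0.058 to 0.23). The exons of ZNF146 overlap those of ZNF565 on the opposite strand. ZNF317 had a log2 fold change of -0.17 (adjusted p = 0.0045). ZNF581, ZNF580 and ZNF787 were not called in that contrast, and ZNF580 and ZNF581 share exon sequence with each other. With shCHAF1B-#1 alone ZNF580 was called higher (0.28, adjusted p = 0.029), a call lost without replicate 1 of that hairpin or replicate 1 or 3 of shGFP. In the mean of both hairpins each of these 3 was called when 1 library was left out: ZNF581 without replicate 3 of shGFP (-0.185), ZNF580 without replicate 2 of shGFP (0.24) and ZNF787 without replicate 1 of shCHAF1B-#1 (-0.333).

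No member passed the test between hairpins. Between shCHAF1B-#2 and shCHAF1B-#1, edgeR called 0 of the 184 members and 0 of all genes. At an unadjusted p under 0.05 there were 11 members with edgeR, 7 with DESeq2 and 11 with limma-voom. Over all 16235 genes there were 1800, 1238 and 1705, and DESeq2 and limma-voom also called 0. The 95% interval of the difference lay within 0.5 log2 units of 0 for 119 of the 184 members, with no like count over all genes given here. ZNF155 is an example of a gene past the threshold with a single hairpin: its log2 fold change was 0.55 with shCHAF1B-#1 (adjusted p = 0.059) and 0.75 with shCHAF1B-#2 (adjusted p = 0.015). The call with shCHAF1B-#2 was lost without replicate 2 of that hairpin, without replicate 2 of shGFP and with DESeq2 (adjusted p = 0.056 to 0.070), and ZNF155 was called with shCHAF1B-#1 when replicate 3 of shCHAF1B-#2 was left out (adjusted p = 0.043).

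Along the chromosome, risers and fallers were interleaved, and the arrays differed in their medians. Cluster numbers count from the short arm's end. In cluster 5, from 19.7 to 22.1 Mb, 1 of 15 tested genes was called higher and 7 lower, with a median log2 fold change of -0.41, in the mean of both hairpins. In cluster 16, from 55.5 to 58.5 Mb, 14 of 49 were called higher and 7 lower, with a median of 0.04. Clusters 2 and 3 had 2 higher and 4 lower of 13, and 0 higher and 2 lower of 12, both with a median of -0.13. Cluster 9 had 3 and 3 of 20 (median -0.04), cluster 12 had 2 and 3 of 21 (0.10), cluster 15 had 4 and 4 of 32 (0.01) and cluster 8 had 0 and 1 of 5 (-0.04). The lowest adjusted p in clusters 3 and 9 belonged to ZNF823 (-0.46) and ZNF529 (0.36). ZNF529 shares exon sequence with 3 genes on the opposite strand, among them ZNF382. Without replicate 3 of shGFP the medians of clusters 3 and 9 were positive (0.0378 and 0.0448). Without replicate 3 of shCHAF1B-#1, cluster 3 had 0 higher and 3 lower, cluster 5 had 1 and 8 (median -0.42), cluster 16 had 12 and 6, and the median of cluster 15 was -0.0248. The background over all genes applies to each cluster: 56.9% called, 29.2% higher and 27.7% lower. The share called higher in cluster 16 lay near that of all genes, and its share called lower lay below. In cluster 5 the share called lower lay above that of all genes, and the share called higher below. Across the 184 members, the log2 fold change and the start position had a Pearson correlation of 0.207 and a Spearman correlation of 0.217, as a description of genes that share libraries. The clusters were not tested against each other.

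**Figure D4:**
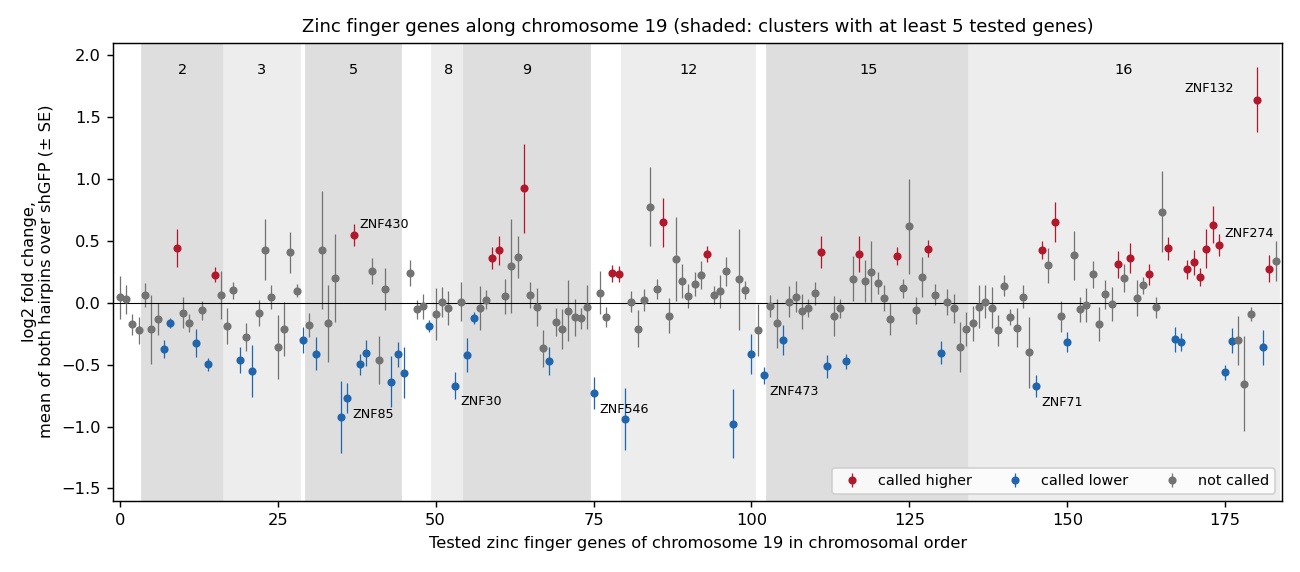
Log2 fold change of the mean of both hairpins over shGFP for the tested zinc finger genes in their order along chromosome 19, with bars of 1 SE, called genes in colour and the 8 described clusters shaded and numbered. Cluster 5 holds 7 genes called lower and 1 called higher of 15 tested, and cluster 16 holds 14 higher and 7 lower of 49. Over all genes tested 29.2% were called higher and 27.7% lower.

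Cluster 5 shows how close the opposite directions lay. ZNF85, ZNF430, ZNF714 and ZNF431 follow each other in that order among the tested members, all on the plus strand. ZNF431 had 12.6, 13.5 and 15.3 CPM with shCHAF1B-#1 and 13.8, 16.2 and 12.8 CPM with shCHAF1B-#2, against 19.9, 15.1 and 20.9 CPM with shGFP. Its highest knockdown library exceeded the lowest shGFP library, and its log2 fold change was -0.41 (adjusted p = 0.0047). ZNF714 lies between ZNF430 and ZNF431, and its log2 fold change was -0.50, beside 0.55 for ZNF430. The other genes called lower there were ZNF66 (-0.92), ZNF429 (-0.64), ZNF14 (-0.41) and ZNF100 (-0.41). ZNF66 and ZNF429 averaged only 0.42 and 0.86 CPM over the 9 libraries. Without replicate 3 of shGFP the cluster had 1 gene higher and 4 lower, with a median of -0.285. With no filter on low counts, which adds the cluster's 7 untested members, its median was -0.0289. Those 7 had at least 5 counts each in replicate 3 of shCHAF1B-#1, the library with B lymphocyte markers, and at most 2 in any other library. The part of that library in this median was not tested.

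Cluster 16, by the end of the long arm, held both the family's largest rise and ZNF274. ZNF329 and ZNF274 rose side by side (0.63 and 0.47), and the next tested members, ZNF544 and ZNF8, fell (-0.56 and -0.31). ZNF132 (1.64) was followed by ZNF324B (-0.36) and ZNF324 (0.27). Over the whole family, 139 pairs of neighbours lay within 100 kb and 78 of them had the same sign (56.1%). In 18 pairs both genes were called, 9 in the same direction and 9 in opposite directions. These pairs include overlapping genes, such as ZNF565 and ZNF146, both called lower, which share exon sequence. No like count over other neighbouring genes is given here. The median difference between neighbours, without sign, was 0.263 log2 units, against 0.323 between any 2 members.

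Protein-coding genes outside the symbol rule that start inside the described clusters had 22 higher and 16 lower of 70 (54.3%). Those of chromosome 19 outside these clusters had 176 and 217 of 632 (62.2%). Neither set excludes zinc finger genes with other symbols, such as ZFP or ZSCAN and a number. Calls were also counted by gene structure. Members with a KRAB motif had 24 higher and 30 lower of 151, and those without it 4 and 6 of 33 (35.8% and 30.3%, beside 34.8% of the tested family and 56.9% of all genes). With fewer than 10 fingers there were 5 higher and 10 lower of 48, with 10 to 14 fingers 13 and 17 of 79, and with 15 or more 10 and 9 of 57, shares of 31.2%, 38% and 33.3%. Exon sequence was shared with another gene in 107 of the 184, of which 15 were called higher and 23 lower, against 13 and 13 of the 77 that shared none (35.5% and 33.8%). Of the members called higher with a promoter entry, 18 of 24 windows held CTTCCGG, against 12 of 31 of those called lower and 88 of all 190. CCAAT stood in 12 of the 24 and 16 of the 31. Both motifs were picked from 4 promoters chosen by their genes' changes, so these counts are a description and were not tested. The median CG count was 19 in the windows of those called higher and 20 in those called lower.

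The 27 members with too few reads to test were left out of the counts of calls above. With no filter on low counts 1 of them was called higher and 0 lower, with a median log2 fold change of 0.35 in the mean of both hairpins. Their counts summed to 247 in replicate 3 of shCHAF1B-#1, against 44 to 72 in each of the other 8 libraries. That library was the highest of the 9 for 20 of the 27. Among the 184 tested members it was the highest for 36, and replicate 3 of shGFP for 40. In it 12 untested members had at least 5 counts with at most 2 in every other library, among them all 7 untested members of cluster 5; ZNF681 had 21 counts there, ZNF43 19 and ZNF737 18. It is the library with 219 CPM of B lymphocyte markers, and the part of those cells in these counts was not tested. Among tested members, ZNF506, ZNF253, ZNF93 and ZNF345 were over 1.5 times as high there as in any other library.

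**Figure D5:**
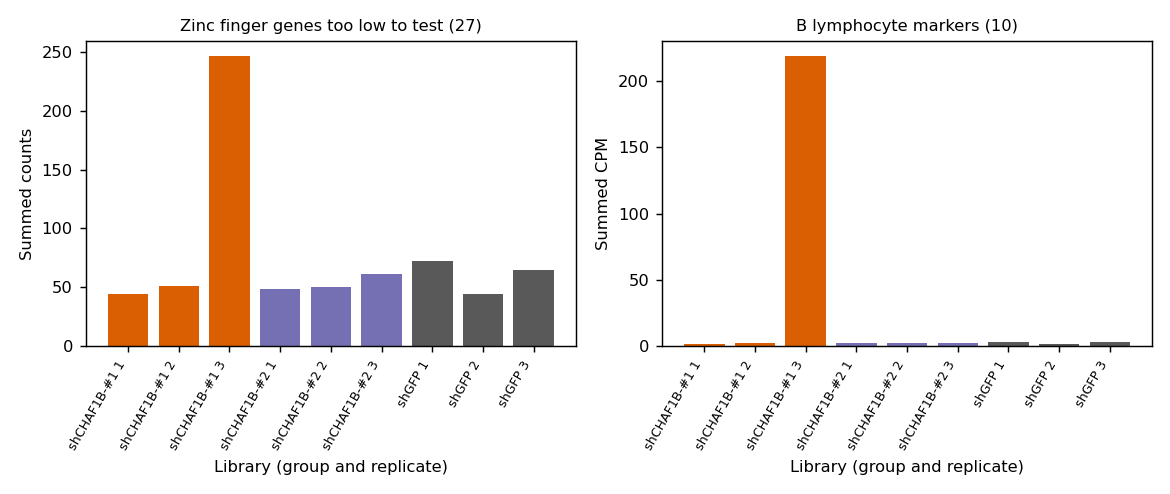
Summed counts of the 27 zinc finger genes of chromosome 19 with too few reads to test (left) and summed CPM of 10 B lymphocyte markers (right) in each library, with the knockdown libraries left of shGFP. Replicate 3 of shCHAF1B-#1 stands apart, with 247 counts of the untested genes and 219 CPM of the markers, against at most 72 counts and 2.58 CPM in the other libraries.

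Partners of KRAB zinc finger proteins were read from the same fit. Of 28 genes for the corepressor complex and H3K9 methylation, 6 were called higher and 16 lower in the mean of both hairpins. The median log2 fold change was -0.13, and the share called was 78.6%, beside 56.9% of all genes. All of them but ATF7IP2 averaged over 10 CPM, a level at which 69.6% of all genes were called. CBX1, an HP1 protein, averaged 46.5 ± 2.45 CPM with shCHAF1B-#1 and 50.4 ± 4.86 CPM with shCHAF1B-#2, against 97.1 ± 1.03 CPM with shGFP (SD, n = 3 each; log2 fold change -1.01). The other HP1 genes were more abundant in shGFP and moved less: CBX5 (195 CPM) by -0.17 and CBX3 (276 CPM) by 0.16, both called. MORC3, an ATPase known from silencing of repeats, had a log2 fold change of 0.61, and the histone-binding RBBP4, also a subunit of CAF-1, one of -0.42. TRIM28 averaged 297 ± 15.3 CPM with shCHAF1B-#1 and 291 ± 9.63 CPM with shCHAF1B-#2, against 349 ± 12.9 CPM with shGFP (-0.25), and SETDB1 stood at -0.18. Of 11 H3K9 demethylases 5 were called higher (KDM7A, JMJD1C, KDM4A, KDM4B and KDM4C) and 0 lower, with a median of 0.09. That share of 45.5% lay below the 56.9% of all genes, and all but KDM4D were over 10 CPM, where it was 69.6%. KDM7A had the largest log2 fold change of the named ones, 0.71.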

How the data were processed

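The authors deposited raw counts per gene, whole numbers that were not normalized, for 9 polyadenylated RNA libraries made with a TruSeq kit, per the labels' protocols. Per the submitters' processing notes, the builds listed include hg38 and the tools are HTSeq 0.8.0, STAR 2.5.3a and DESeq2 1.18.1, with no order given; whether counting used strand is not given in the sources used here. Identifiers were matched to GENCODE release 29 without their version (26149 of 26186). Counts were filtered with filterByExpr (minimum count 10, minimum total 15, proportion 0.7), scaled with TMM and tested by quasi-likelihood (edgeR 4.0.16, R 4.3.3). A single model held the 9 libraries, with no covariate beside the hairpin. P-values were adjusted over 16235 genes. Alternatives included DESeq2 1.42.0, limma 3.58.1 (voom), other scalings and filters, and leaving out each library. The fit was tested on simulated data. Promoters came from RefSeq on GRCh38.p14. Fingers were counted with a C2H2 pattern in the longest complete coding sequence.

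The members and lists were chosen with earlier results of these data known. Named genes were those called the same way by both hairpins with at least 1 CPM and no overlap between knockdown and shGFP libraries (10 each way, by the smaller change of the hairpins), like genes of a single hairpin, the 5 highest per exon length in shGFP, the smallest adjusted p in each cluster, and members of known role; of the silencing genes, the 4 with the smallest adjusted p, with TRIM28 and SETDB1. Neighbours in clusters 5 and 16, CBX3, CBX5 and other genes behind small counts were named after their values were seen. Replicates of a group differed by more than sampling noise.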

Additional observations from a re-analysis of the deposited data

Results flagged for a closer look

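The summed counts of the 27 zinc finger genes of chromosome 19 with too few reads to test were 247 in replicate 3 of shCHAF1B-#1, above every shGFP library, whose sums lay between 44 and 72. These genes were left out of the counts of calls, and 10 B lymphocyte markers summed to 219 CPM in the same library. The part of those cells in the counts was not tested.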

How the results depend on the processing

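Over 1597 values of named genes under the alternatives, 23 lost and 14 gained a call, in 10 genes, and 19 changed direction, in 4 genes, 0 of them where the gene was called; of 383 counts and medians 20 moved beyond 1.5 times or beyond the spread. ZNF580 with shCHAF1B-#2 (-1.1e-05 as reported) was 0.00225 with RLE scaling, 0.00208 with DESeq2, 0.0095 with limma-voom, 0.00269 with the replicate block and 0.00039 with only the groups compared. With single libraries left out it ranged from -0.106 to 0.102, ZNF787 with shCHAF1B-#1 from -0.31 to 0.112, ZNF93 with shCHAF1B-#2 from -0.451 to 0.128, ZNF224 with shCHAF1B-#2 from -0.124 to 0.031 and ZNF224 in the mean from -0.0337 to 0.121. DESeq2 called 19 members lower with shCHAF1B-#2, with no share of all genes given here. Without members that share exon sequence with another gene, the counts higher and lower were 12 and 11 with shCHAF1B-#1, 9 and 8 with shCHAF1B-#2, 13 and 13 in the mean, and 8 and 8 with both hairpins, with fewer genes by construction; the medians of clusters 3 and 9 were then -0.277 and 0.299. Without a filter on low counts, which brings untested members in, the medians of clusters 3 and 5 were 0.068 and -0.0289. The untested members of cluster 5 had most of their counts in replicate 3 of shCHAF1B-#1. With a gap of 0.5 Mb, the median of cluster 16 was 0.203 over fewer genes. Leaving out each library in turn, the medians ranged from -0.187 to 0.0378 in cluster 3, from -0.418 to -0.285 in cluster 5 and from -0.126 to 0.0448 in cluster 9; the cause was not tested. Medians near 0 also changed sign: cluster 8 (-0.0908 to 0.00646), cluster 15 (-0.0371 to 0.0662) and the whole family in the mean (-0.0478 to 0.0247).

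Same-numbered libraries did not deviate together, so the numbers were not taken as pairs. With a replicate block, 26 members were called higher and 34 lower in the mean, 22 and 28 with shCHAF1B-#1, 19 and 27 with shCHAF1B-#2, and 15 and 21 with both. The shares of all genes called with that block are not given here. Low read counts limit what can be seen: 27 of 211 members did not pass the filter, and the shGFP values of ZNF132 rest on 7 to 18 counts per library.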
